A study of Mus musculus with 12 samples.

Results

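Mature CD4 and CD8 single-positive thymocytes (CD4SP and CD8SP) were set against the early CD4- CD8- stage DN2 to see which microRNAs (miRNAs) both mature populations hold at levels that differ from DN2. All cells came from C57BL/6 mouse thymus by FACS. CD4SP cells were sorted as CD4+ CD8- CD3hi CD90+ CD24lo, CD8SP cells as CD4- CD8+ CD3hi CD90+ CD24lo, and DN2 cells as CD4- CD8- CD3- CD90+ CD44+ CD25+. The mice carried no stated transgene or deletion and received no stated treatment, and the sources used here give neither their age nor their number nor any pooling. The 3 libraries were taken of 12 in the series by their population labels, 2 single-positive libraries and 1 DN2 library. They hold 4497420 mature miRNA reads in CD4SP, 2660370 in CD8SP and 2410114 in DN2. In each of them 96.3% to 98.6% of reads start at the mature miRNA's base 3, so the 3 libraries describe the same stretch of each molecule and the deposited sequences mostly lack bases 1 and 2 of the miRNAs printed here. The first 8 bases of reads listed there equalled the RefSeq bases from base 3 on in 98.6% of reads in CD4SP, 97.9% in CD8SP and 98.2% in DN2. The sources used here do not say whether these bases were trimmed.

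A miRNA is a short RNA cut from a hairpin precursor. It is loaded into an Argonaute protein and pairs with messenger RNAs mainly through its seed, bases 2 to 8, which lowers their translation and stability. DN2 cells are dividing progenitors in the thymus that are committing to the T cell lineage. Single-positive cells have rearranged and tested their T cell receptor, have mostly stopped dividing and are close to leaving the thymus. Many miRNAs lie in clusters that are cut from one transcript, so their members often follow each other.

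Each level is in RPM, the reads of a miRNA per 1000000 mature miRNA reads of its library. Each population has 1 library, so there is no replicate check and no p-value. Ratios to DN2 carry an exact 95% interval in parentheses, which covers counting error only. A miRNA was called higher or lower than DN2 when that whole interval was past 2-fold and the library with more of it reached 100 RPM and 10 reads. It was called shared when both single-positive libraries were called in the same direction. Both ratios have the same DN2 library below the line, so a shared call is a description of 3 libraries and not a repeat. In sorted populations fewer cells with a miRNA and less of it per cell cannot be told apart. The surface proteins used for sorting are not measured here. The miRNAs of hairpin miR-142, found throughout blood cells, summed to 47498 RPM in CD4SP, 75894 RPM in CD8SP and 21207 RPM in DN2, and none of the 5 muscle miRNAs had a read in any of the 3.

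The sequences below are those of the shared miRNAs that carry most of the description, with the seed in capitals. They are RefSeq mature sequences on mouse build GRCm38.p6, written 5′ to 3′. The first set was higher in both single-positive libraries.
miR-132: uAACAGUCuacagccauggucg
miR-182: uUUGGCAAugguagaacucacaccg
miR-183: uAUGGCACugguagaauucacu
miR-22: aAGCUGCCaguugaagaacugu
miR-342-3p: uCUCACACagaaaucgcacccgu
miR-149: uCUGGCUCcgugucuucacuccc
miR-142-3p: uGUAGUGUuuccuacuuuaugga
miR-142-5p: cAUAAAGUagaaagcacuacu
miR-132 lies at chr11:75173723-75173744 (plus strand) in an intron of the transcript 1700016P03Rik. miR-22 lies at chr11:75463772-75463793 (plus strand) in an exon of Tlcd2. miR-342-3p lies at chr12:108658680-108658702 (plus strand) in an intron of Evl. miR-149 lies at chr1:92850381-92850403 (plus strand) in an intron of Gpc1. miR-182, at chr6:30165962-30165986 (minus strand), and miR-183, at chr6:30169711-30169732 (minus strand), are intergenic. The arms of miR-142 lie at chr11:87756903-87756925 (plus strand) and chr11:87756867-87756887 (plus strand) in the noncoding gene Mir142hg.

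The second set was lower in both single-positive libraries. miR-17 and miR-20a share the seed AAAGUGC, and miR-221 and miR-222 share GCUACAU.
miR-17: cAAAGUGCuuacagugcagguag
miR-20a: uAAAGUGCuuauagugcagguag
miR-18a: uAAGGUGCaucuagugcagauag
miR-221: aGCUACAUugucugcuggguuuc
miR-222: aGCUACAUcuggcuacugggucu
miR-126-3p: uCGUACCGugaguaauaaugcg
miR-21: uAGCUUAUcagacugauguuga
miR-128: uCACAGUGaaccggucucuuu
miR-107: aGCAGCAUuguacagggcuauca
miR-17, miR-18a and miR-20a lie within 1000 bases of each other in an exon of Mir17hg, at chr14:115043684-115043706 (plus strand), chr14:115043867-115043889 (plus strand) and chr14:115044183-115044205 (plus strand). miR-221 and miR-222 are intergenic, at chrX:19146307-19146329 (minus strand) and chrX:19146901-19146923 (minus strand). miR-126-3p lies at chr2:26591402-26591423 (plus strand) in an exon of Egfl7, and miR-21 at chr11:86584120-86584141 (minus strand) in an exon of Vmp1. miR-128 has copies in introns of R3hdm1 and Arpp21, at chr1:128202404-128202424 (plus strand) and chr9:112118644-112118664 (minus strand). miR-107 lies at chr19:34820700-34820722 (minus strand) in an intron of Pank1.

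The third set holds family members whose mature sequences are close but whose levels moved apart, and is shown for that contrast.
miR-181a: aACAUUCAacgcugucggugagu
miR-181b: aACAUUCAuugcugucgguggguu
miR-181d: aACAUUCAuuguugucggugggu
miR-99a: aACCCGUAgauccgaucuugug
miR-99b: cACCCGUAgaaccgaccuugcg
miR-125a-5p: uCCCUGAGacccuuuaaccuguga
miR-125b-5p: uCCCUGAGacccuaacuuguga
miR-103: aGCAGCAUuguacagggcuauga
All members of a family have the same seed. In each difference below the base of the miRNA named first stands before the position and that of the other miRNA after it. Counted from 1 at the 5′ end, miR-181b differs from miR-181a at U9A, U10C and G21A, and miR-181d differs from it at U9A, U10C, U12C and G21A. miR-99b differs from miR-99a at C1A, A11U, C16U and C21U. Compared position by position without a gap, miR-125b-5p and miR-125a-5p differ at 7 of 22 bases, all past the seed. miR-125a-5p is the longer of them, and an alignment with a gap would leave fewer differences. miR-107 differs from miR-103 at a single base, C22G. miR-181a and miR-181b have copies side by side on chromosomes 1 and 2, miR-181a at chr1:137966468-137966490 (plus strand) and chr2:38852741-38852763 (plus strand) and miR-181b at chr1:137966650-137966673 (plus strand) and chr2:38853845-38853868 (plus strand), where the chromosome 1 copies lie in exons of the noncoding gene A430106G13Rik and the chromosome 2 copies are intergenic. miR-181d lies at chr8:84178759-84178781 (minus strand) in an intron of Nanos3. miR-99a lies at chr16:77598940-77598961 (plus strand) in an intron of Mir99ahg, and miR-99b at chr17:17830194-17830215 (plus strand) in an intron of Spaca6. miR-125a-5p lies at chr17:17830817-17830840 (plus strand) in an exon of Spaca6. miR-125b-5p has copies in an exon of C130023A14Rik and an intron of 3110039I08Rik, at chr16:77646279-77646300 (plus strand) and chr9:41581940-41581961 (plus strand). miR-103 has copies in introns of Pank3 and Pank2, at chr11:35782447-35782469 (plus strand) and chr2:131288103-131288125 (plus strand).

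Of 150 miRNAs with at least 100 RPM and 10 reads in 1 or more of the 3 libraries, 16 were higher in both single-positive libraries than in DN2 (10.7% of those tested) and 30 were lower in both (20%), 46 in all (30.7%). Against DN2, CD4SP had 20 higher (13.3%) and 49 lower (32.7%), 69 in all (46%), and CD8SP had 29 higher (19.3%) and 33 lower (22%), 62 in all (41.3%). A further 39 were called in 1 of the 2 comparisons, and for 36 of these the other ratio lay on the same side of 1. The remaining 65 were called in neither, and 0 were called in opposite directions. The ratio was above 1 in both libraries for 58, below 1 in both for 72 and on different sides for 20.

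**Figure D1:**
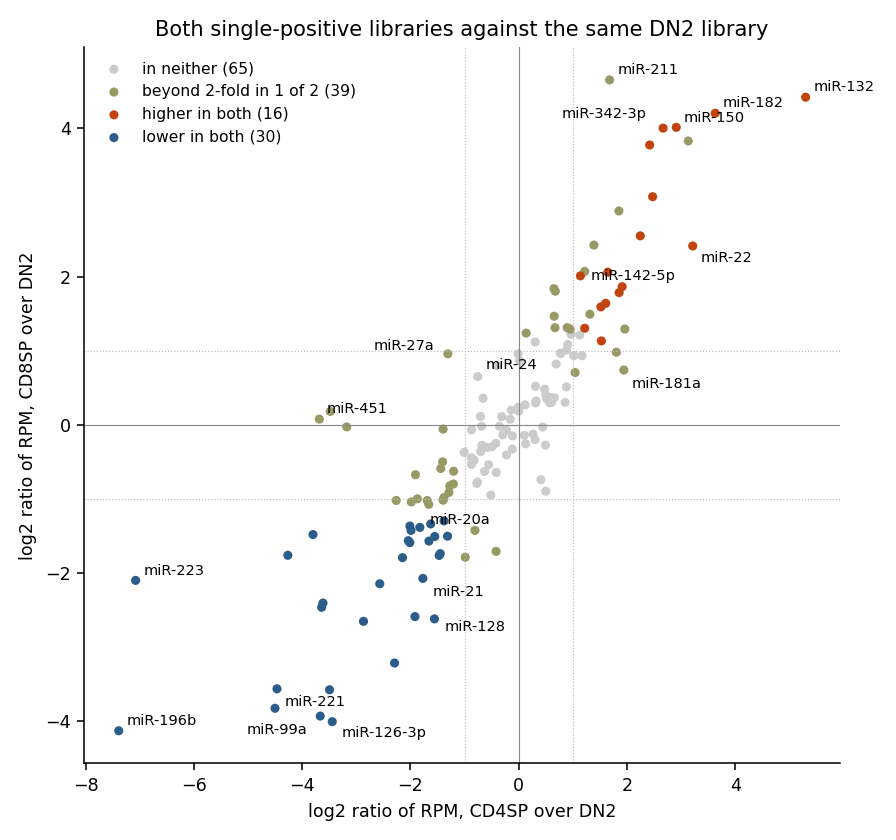
Log2 ratio of RPM of CD8SP over DN2 (vertical axis) against CD4SP over DN2 (horizontal axis) for the 150 miRNAs tested, each point 1 miRNA, with shared higher, shared lower and other miRNAs in different colours. The 16 shared higher miRNAs lie at the upper right and the 30 shared lower ones at the lower left, and both axes use the same DN2 library.

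The lower set weighed more in DN2 than the higher set did in the mature cells. The 30 shared lower miRNAs made up 8.54% of mature reads in CD4SP and 9.32% in CD8SP, against 30.4% in DN2. The 16 shared higher miRNAs made up 9.30% in CD4SP and 15.02% in CD8SP, against 2.77% in DN2. RPM values share a fixed total, and the balance of the calls depended on the scaling. The 16 higher and 30 lower became 25 and 22 with median-of-ratios size factors, 30 and 19 with TMM factors, and 16 and 42 with a total that leaves out miR-16, miR-20a and miR-21. These scalings shifted every CD4SP ratio by 0.35, 0.46 and -0.16 on the log2 scale and every CD8SP ratio by 0.14, 0.32 and -0.24. For CD4SP alone, the 20 higher and 49 lower became 35 and 33 with size factors, 37 and 29 with TMM factors and 21 and 60 without the 3 most abundant. For CD8SP alone, the 29 higher and 33 lower became 36 and 30, 43 and 24, and 23 and 45 under the same 3 scalings. All 16 shared higher calls were kept under both sets of factors, and all 30 shared lower calls without the 3 most abundant. The lower calls lost with size factors were miR-130b, miR-301b, miR-19a, miR-34a, miR-340-5p, miR-671-5p, miR-1983 and miR-93*, and TMM factors lost these and miR-10a, miR-181d and miR-298.

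The shared higher miRNAs included miR-150 and miR-342-3p, both associated with mature lymphocytes. miR-150, which is known to hold down the transcription factor Myb in lymphocytes, had 23293 RPM in CD4SP and 50003 RPM in CD8SP, against 3099 RPM in DN2. Both single-positive libraries lay above DN2, at ratios of 7.52 (7.34 to 7.70) in CD4SP and 16.1 (15.8 to 16.5) in CD8SP. miR-342-3p, encoded within the actin regulator gene Evl, had 4695 RPM in CD4SP and 11835 RPM in CD8SP, against 739 RPM in DN2. Its ratios were 6.35 (6.05 to 6.67) in CD4SP and 16.02 (15.3 to 16.8) in CD8SP. For both miRNAs CD8SP was higher than CD4SP by a called difference, so the mature libraries share the direction and not the level. The other arm of the miR-150 hairpin, miR-150*, moved the same way and had 155 RPM in CD4SP and 397 RPM in CD8SP, against 29.0 RPM in DN2. It and the miRNAs under 1000 RPM in either single-positive library were picked for description after their values were seen.

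miR-22, which is known to repress Tet2 in blood stem cells, had 12090.5 RPM in CD4SP and 6934 RPM in CD8SP, against 1303 RPM in DN2. Its ratios were 9.28 (8.95 to 9.62) in CD4SP and 5.32 (5.12 to 5.53) in CD8SP, so the CD4SP library was the higher of the mature libraries. miR-142-5p had 33363 RPM in CD4SP and 60922 RPM in CD8SP, against 15136 RPM in DN2, with ratios of 2.20 (2.18 to 2.23) in CD4SP and 4.02 (3.98 to 4.07) in CD8SP. miR-142-3p, from the other arm of this blood-lineage hairpin, had 14135 RPM in CD4SP and 14973 RPM in CD8SP, against 6071 RPM in DN2, with ratios of 2.33 (2.29 to 2.37) in CD4SP and 2.47 (2.42 to 2.51) in CD8SP. The miR-142-5p call in CD4SP was lost when the 3 most abundant miRNAs were left out of the total (0.98 on the log2 scale).

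The largest shared ratio belonged to a scarce miRNA. miR-132, known as a target of the transcription factor CREB in neurons, had 621 RPM in CD4SP and 337 RPM in CD8SP, against 15.8 RPM in DN2. The ratios were 39.4 (28.6 to 55.8) in CD4SP and 21.4 (15.5 to 30.4) in CD8SP, and they rest on 38 reads in DN2. Counting only perfect matches to the hairpin left 375 reads in CD4SP, 143 in CD8SP and 8 in DN2, with 66.7 RPM in CD8SP, which is under the 100 RPM floor, and ended this call. miR-149 had 673 RPM in CD4SP and 830.3 RPM in CD8SP, against 142 RPM in DN2, and miR-151-5p, in an intron of the kinase gene Ptk2, had 306 RPM in CD4SP and 296 RPM in CD8SP, against 81.3 RPM in DN2. Both libraries lay at least 3-fold above DN2 for these.

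The miR-183 cluster on chromosome 6 had 3 tested members, miR-182, miR-183 and miR-96, all above DN2 in both libraries. All 3 were under 100 RPM in DN2 and were tested only through the single-positive libraries, which favours ratios above 1. The cluster is best known from sensory cells, and miR-182 is induced by interleukin-2 in helper T cells, where it targets Foxo1. miR-182 had 339 RPM in CD4SP and 504 RPM in CD8SP, against 27.4 RPM in DN2, with ratios of 12.4 (9.67 to 16.1) in CD4SP and 18.4 (14.4 to 23.9) in CD8SP. miR-183 had 104 RPM in CD4SP and 157 RPM in CD8SP, against 18.7 RPM in DN2, with ratios of 5.55 (4.08 to 7.71) in CD4SP and 8.44 (6.19 to 11.7) in CD8SP. miR-96 had 80.0 RPM in CD4SP and 129.7 RPM in CD8SP, against 9.13 RPM in DN2, and missed the shared call because CD4SP stayed under 100 RPM. The cluster is also expressed in epithelia, and the 7 epithelial miRNAs of the miR-200 family, miR-203 and miR-205 summed to 250 RPM in CD4SP (7 of 7 with reads) and 407 RPM in CD8SP (6 of 7), against 130 RPM in DN2 (7 of 7). The part of epithelial cells in these levels was not tested.

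Another group came from the repeated miRNA cluster in an intron of Sfmbt2 on chromosome 2 (GENCODE hairpins from 10467229 to 10514395, plus strand), an imprinted locus known from placenta and embryonic stem cells. Of its 8 tested names, 5 were shared higher, beside 10.7% of all 150 tested, and all 8 had ratios above 1 in both libraries. Of these, miR-466c-5p, miR-466k and miR-669f were under 100 RPM in DN2 and were tested only through the single-positive libraries, which favours ratios above 1. The most abundant of the 8 in the mature tables, miR-467c, had 1449.6 RPM in CD4SP and 1102 RPM in CD8SP, against 503 RPM in DN2. Its ratios were 2.88 (2.71 to 3.07) in CD4SP and 2.19 (2.05 to 2.35) in CD8SP. Of miR-669o 81.7% of CD8SP reads, and of miR-467e 67.0%, were in the separately deposited hairpin table. With that table added, miR-669o (1435 RPM) and miR-467e (1262 RPM) exceeded miR-467c (1040 RPM) in CD8SP. miR-467d had 729 RPM in CD4SP and 766 RPM in CD8SP, against 254 RPM in DN2. miR-467a had 519 RPM in CD4SP and 493 RPM in CD8SP, against 143 RPM in DN2. miR-467e and miR-466c-5p were also called, with 344 and 458 RPM in CD4SP and CD8SP against 110.0 in DN2 for miR-467e and 187 and 191 RPM in CD4SP and CD8SP against 61.3 in DN2 for miR-466c-5p. None of these 5 was called between CD4SP and CD8SP, and by the rule that chose them DN2 was lowest of the 3 for each. Members of the cluster have near-identical sequences, so reads may be split among names: in miR-466c-5p 17.1% of reads in CD4SP, 10% in CD8SP and 22.2% in DN2 came from sequences assigned to several names. miR-467c lost its CD8SP call when the 3 most abundant miRNAs were left out of the total (0.89 on the log2 scale).

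**Figure D2:**
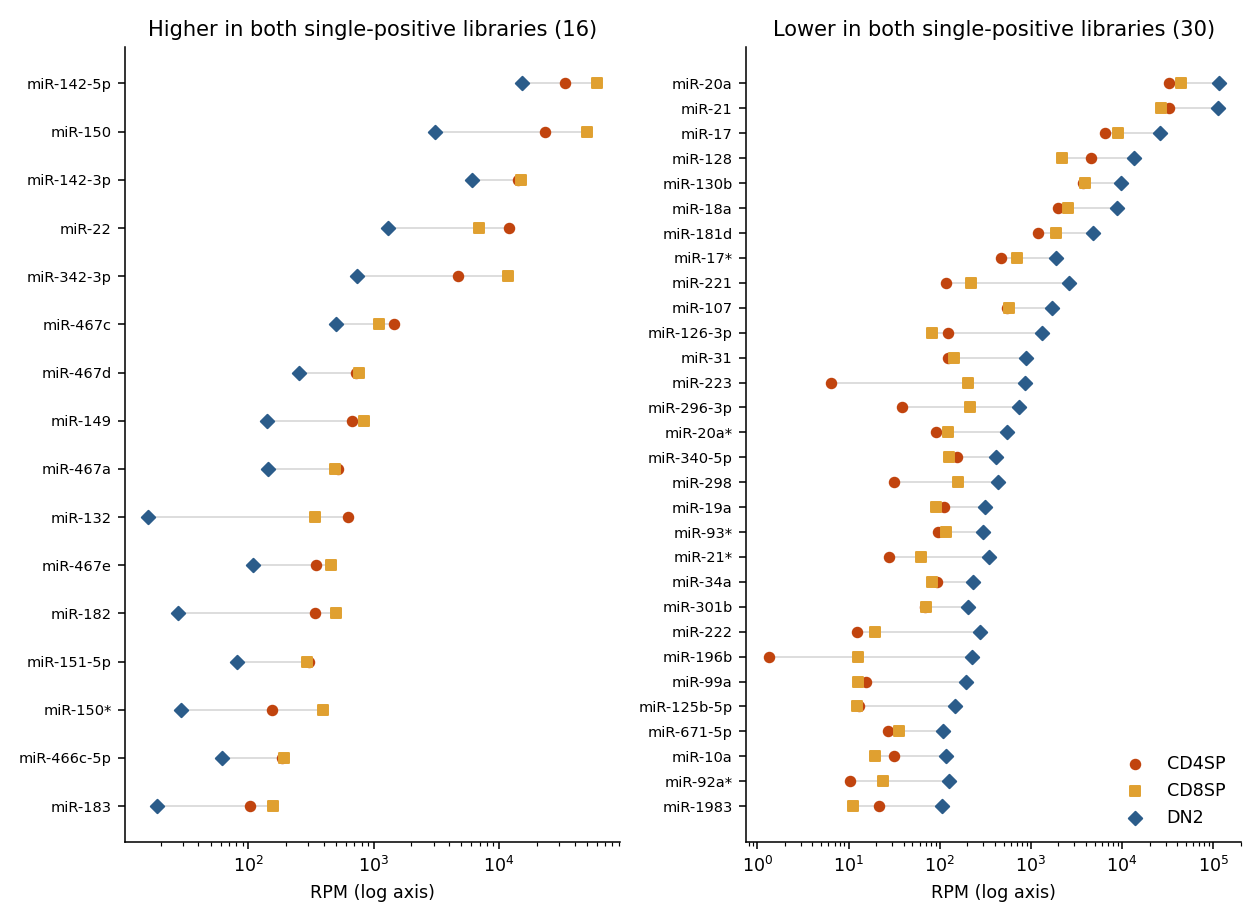
RPM on a log axis of the 16 shared higher miRNAs (left) and the 30 shared lower miRNAs (right), 1 row per miRNA, with a circle for CD4SP, a square for CD8SP and a diamond for DN2, and a grey line that joins the lowest to the highest library. For miR-150 the single-positive libraries sit at 23293 and 50003 RPM against 3099 RPM in DN2, and for miR-20a at 32267 and 43832 RPM against 114370.0 RPM.

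Among the shared lower miRNAs, the miR-17 cluster on chromosome 14 stood out by level. This cluster promotes proliferation and survival of lymphocytes and represses the pro-death gene Bim. miR-20a had 32267 RPM in CD4SP and 43832 RPM in CD8SP, against 114370.0 RPM in DN2, and was 3.54-fold (3.52 to 3.57) lower in CD4SP and 2.61-fold (2.59 to 2.63) lower in CD8SP. miR-17 had 6410.1 RPM in CD4SP and 8911 RPM in CD8SP, against 26328 RPM in DN2, and was 4.11-fold (4.05 to 4.16) lower in CD4SP and 2.95-fold (2.91 to 2.999) lower in CD8SP. miR-18a had 2004 RPM in CD4SP and 2559.8 RPM in CD8SP, against 8861 RPM in DN2, and was 4.42-fold (4.31 to 4.53) lower in CD4SP and 3.46-fold (3.37 to 3.56) lower in CD8SP. For all 3, CD4SP was lowest, CD8SP slightly above it and DN2 highest. The minor arms were lower too, and miR-17* had 470.5 RPM in CD4SP and 696 RPM in CD8SP, against 1868 RPM in DN2, and miR-20a* had 91.2 RPM in CD4SP and 122 RPM in CD8SP, against 539.8 RPM in DN2. miR-19a, from the same cluster, had 112 RPM in CD4SP and 91.3 RPM in CD8SP, against 309.7 RPM in DN2.

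All 8 tested names of the chromosome 14 cluster had ratios below 1 in both libraries, and 6 of them were shared lower. Fewer names of its paralogs passed the rule. Of 7 tested names of the miR-106a cluster on the X chromosome 1 was shared lower, and of 5 of the miR-106b cluster in Mcm7 on chromosome 5 also 1, while every name in both lay below 1 in both libraries. miR-106a, which differs from miR-17 only at A10U and shares its seed, had 5374 RPM in CD4SP and 7132 RPM in CD8SP, against 12399 RPM in DN2, ratios of 0.433 and 0.575, and was called in CD4SP alone. miR-93 had 18272 RPM in CD4SP and 24583 RPM in CD8SP, against 33447 RPM in DN2, with ratios of 0.546 and 0.735, and was called in neither. miR-25 had 12286 RPM in CD4SP and 15536 RPM in CD8SP, against 22511 RPM in DN2, with ratios of 0.546 and 0.690. miR-92a stood just outside the shared rule, with 354 RPM in CD4SP and 563 RPM in CD8SP, against 1141 RPM in DN2, and was called in CD4SP alone. Over the whole list of the cluster and its paralogs 8 of 18 tested names were shared lower and 0 higher, beside 20% and 10.7% of all 150. The list's median log2 ratios were -1.43 in CD4SP and -1.18 in CD8SP, beside -0.30 and -0.06 over all 150.

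**Figure D3:**
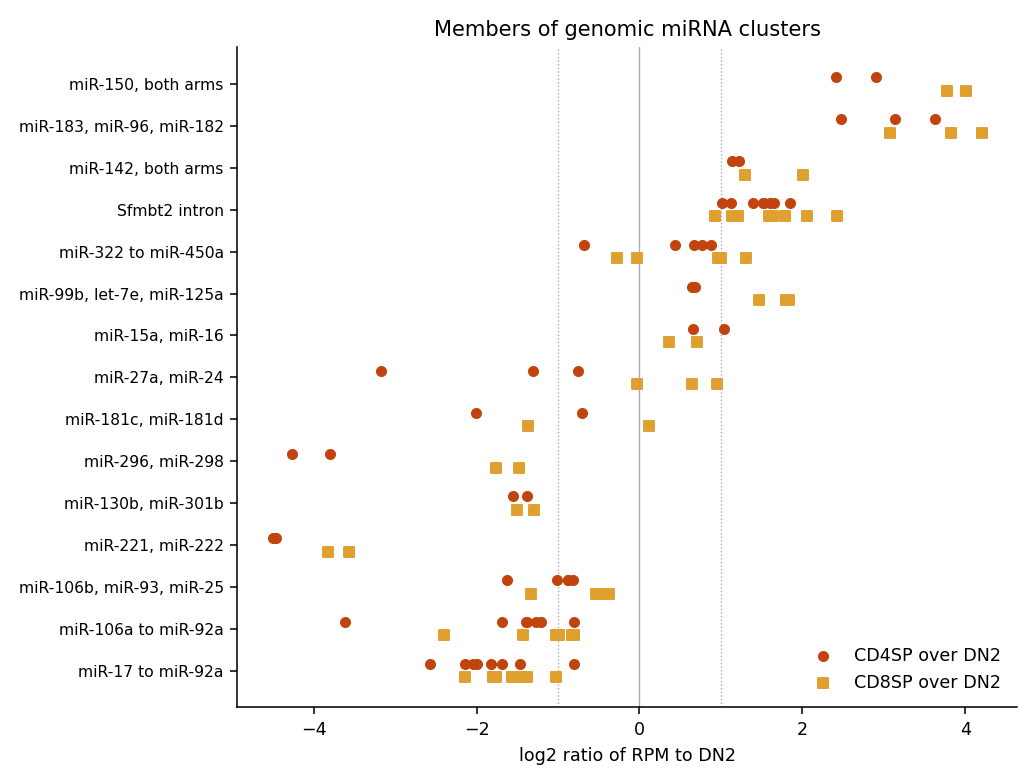
Log2 ratio of RPM over DN2 for the tested names of genomic clusters, 1 row per cluster, with circles for CD4SP and squares for CD8SP, a solid line at 0 and dotted lines at -1 and 1. All names of the miR-17 cluster and of its paralogs on the X chromosome and chromosome 5 lie below 0 in both libraries, and all 8 names of the Sfmbt2 cluster lie above 0.

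Several miRNAs known from blood stem and progenitor cells were lower in both single-positive libraries. miR-221, which targets the receptor Kit and the cell cycle inhibitor p27, had 117 RPM in CD4SP and 219 RPM in CD8SP, against 2581 RPM in DN2, and was 22.1-fold (20.2 to 24.2) lower in CD4SP and 11.8-fold (10.8 to 12.9) lower in CD8SP. Its neighbour miR-222 had 12.2 RPM in CD4SP and 19.5 RPM in CD8SP, against 277 RPM in DN2, and was 22.6-fold (17.2 to 30.4) lower in CD4SP and 14.2-fold (10.7 to 19.2) lower in CD8SP. miR-126-3p, from the endothelial gene Egfl7 and known in blood stem cells, had 123 RPM in CD4SP and 83.1 RPM in CD8SP, against 1333 RPM in DN2, and was 10.9-fold (9.93 to 11.9) lower in CD4SP and 16.04-fold (13.99 to 18.5) lower in CD8SP. For these 3 the DN2 level was the highest of the 3 libraries by more than 10-fold. miR-196b, within the Hoxa cluster, had 1.33 RPM in CD4SP and 12.8 RPM in CD8SP, against 223 RPM in DN2. miR-10a, within the Hoxb cluster, had 31.1 RPM in CD4SP and 19.5 RPM in CD8SP, against 117 RPM in DN2. miR-99a and miR-125b-5p, a pair associated with stem cells, had 15.3 and 12.8 RPM in CD4SP and CD8SP against 195 in DN2 for miR-99a and 13.1 and 12.4 RPM in CD4SP and CD8SP against 148 in DN2 for miR-125b-5p. By the shared call DN2 was above both mature libraries for each, but at no more than 223 RPM.

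The progenitor list had 10 tested members of 14. It had 7 shared lower and 0 shared higher, beside 20% and 10.7% of all 150 tested. Its median log2 ratios were -3.47 in CD4SP and -3.57 in CD8SP, beside -0.30 and -0.06 over all 150. The floor of 100 RPM was reached in DN2 alone by miR-125b-5p, miR-99a, miR-10a, miR-196b and miR-222, and in CD8SP alone by miR-99b. Their direction was partly set by how they entered the test, so these counts and medians are a description and no support. The other 3 tested members went the opposite way and were called higher in CD8SP. These are the cluster of miR-99b, let-7e and miR-125a-5p on chromosome 17, of which miR-99b shares its seed with miR-99a and miR-125a-5p with miR-125b-5p, as shown above. miR-99b had 56.0 RPM in CD4SP and 127 RPM in CD8SP, against 35.7 RPM in DN2. let-7e had 205 RPM in CD4SP and 358 RPM in CD8SP, against 129.9 RPM in DN2. miR-125a-5p had 229 RPM in CD4SP and 501 RPM in CD8SP, against 144 RPM in DN2, with ratios of 1.60 (1.41 to 1.81) in CD4SP and 3.49 (3.10 to 3.94) in CD8SP. All 3 lay above DN2 in both libraries, and CD4SP was not called. Of the myeloid and endothelial markers, miR-223, which marks myeloid cells, had 6.45 RPM in CD4SP and 203 RPM in CD8SP, against 869 RPM in DN2, and the 2 arms of the endothelial miR-126 summed to 128 RPM in CD4SP and 85.7 RPM in CD8SP, against 1402 RPM in DN2. The part of other cells in the decrease of these miRNAs was not tested.

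miR-21, a survival-promoting miRNA that targets Pdcd4, was the next most abundant shared lower miRNA in DN2 after miR-20a. It had 33005 RPM in CD4SP and 26776 RPM in CD8SP, against 112534 RPM in DN2, and was 3.41-fold (3.39 to 3.43) lower in CD4SP and 4.20-fold (4.17 to 4.24) lower in CD8SP. Its other arm, miR-21*, had 27.6 RPM in CD4SP and 62.4 RPM in CD8SP, against 344 RPM in DN2. miR-128, best known from brain, had 4550.4 RPM in CD4SP and 2179.8 RPM in CD8SP, against 13379 RPM in DN2, and was 2.94-fold (2.89 to 2.99) lower in CD4SP and 6.14-fold (5.97 to 6.31) lower in CD8SP. miR-130b had 3729 RPM in CD4SP and 3947 RPM in CD8SP, against 9694 RPM in DN2, and was 2.60-fold (2.55 to 2.65) lower in CD4SP and 2.46-fold (2.40 to 2.51) lower in CD8SP. Its neighbour miR-301b had 69.3 RPM in CD4SP and 71.4 RPM in CD8SP, against 203 RPM in DN2. Both lost the call with either set of scaling factors.

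miR-107 had 545 RPM in CD4SP and 579.8 RPM in CD8SP, against 1719 RPM in DN2, and was 3.16-fold (3.001 to 3.32) lower in CD4SP and 2.97-fold (2.80 to 3.15) lower in CD8SP. This level is uncertain, because 72.7% of its reads in CD4SP, 73.7% in CD8SP and 43.2% in DN2 came from sequences that also fit miR-103. With shared sequences left out its log2 ratios were -2.72 and -2.68, against -1.66 and -1.57 in the main count. miR-103, with copies in introns of Pank3 and Pank2, had 11086 RPM in CD4SP and 11099 RPM in CD8SP, against 17158 RPM in DN2, with ratios of 0.646 and 0.647, and was not called.

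Apart from miR-181d, described with its family, the remaining shared lower miRNAs reached at most 890 RPM in DN2. miR-31 had 122 RPM in CD4SP and 142 RPM in CD8SP, against 890.0 RPM in DN2. miR-34a, a target of p53, had 92.9 RPM in CD4SP and 81.6 RPM in CD8SP, against 231 RPM in DN2. miR-296-3p and miR-298 lie next to each other at the imprinted Gnas locus on chromosome 2; miR-296-3p had 38.2 RPM in CD4SP and 217 RPM in CD8SP, against 734 RPM in DN2, and miR-298 had 31.6 RPM in CD4SP and 157 RPM in CD8SP, against 439 RPM in DN2. In both, CD8SP lay between CD4SP and DN2, and the mature libraries themselves were apart by the same call. miR-340-5p, miR-671-5p, miR-1983, miR-92a* and miR-93* were also shared lower, with 153 and 125.2 RPM in CD4SP and CD8SP against 417 in DN2 for miR-340-5p as the most abundant.

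Members of the miR-181 family, with the same seed, did not move together. miR-181a, which raises the sensitivity of the T cell receptor in thymocytes, had 97999 RPM in CD4SP and 42560.4 RPM in CD8SP, against 25500.5 RPM in DN2, with ratios of 3.84 (3.81 to 3.88) in CD4SP and 1.67 (1.65 to 1.69) in CD8SP, and was called in CD4SP alone. miR-181b had 7052 RPM in CD4SP and 2885 RPM in CD8SP, against 9419 RPM in DN2, with ratios of 0.749 (0.736 to 0.762) in CD4SP and 0.306 (0.298 to 0.314) in CD8SP, and was called lower in CD8SP alone. miR-181d, encoded with miR-181c on chromosome 8, had 1196 RPM in CD4SP and 1869 RPM in CD8SP, against 4813 RPM in DN2, and was 4.03-fold (3.90 to 4.16) lower in CD4SP and 2.58-fold (2.49 to 2.66) lower in CD8SP. miR-181c had 1195 RPM in CD4SP and 2105 RPM in CD8SP, against 1948 RPM in DN2, and was called in neither. Of the family's 5 tested names, the minor arm miR-181a-1* included, 1 was shared lower and 0 were shared higher, beside 20% and 10.7% of all 150. miR-181d lost the call with TMM factors.

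Summed over names with the same seed, 17 families reached 1000 RPM with at least 2 names, and 5 were lower in both libraries and 0 higher. Of the 150 single names 20% were shared lower and 10.7% shared higher. The AAAGUGC family of miR-17, miR-20a, miR-20b, miR-93, miR-106a and miR-106b had 69386 RPM in CD4SP and 94404 RPM in CD8SP, against 202949 RPM in DN2, and was 2.92-fold (2.91 to 2.94) lower in CD4SP and 2.15-fold (2.14 to 2.16) lower in CD8SP. The GCUACAU family of miR-221 and miR-222 had 129 RPM in CD4SP and 238 RPM in CD8SP, against 2858 RPM in DN2, and was 22.1-fold (20.3 to 24.1) lower in CD4SP and 11.99-fold (11.1 to 13.03) lower in CD8SP. The AAGGUGC family of miR-18a and miR-18b had 2173 RPM in CD4SP and 2780.1 RPM in CD8SP, against 9307 RPM in DN2. The AGUGCAA family of miR-130a, miR-130b and miR-301a had 4195 RPM in CD4SP and 4471 RPM in CD8SP, against 10401 RPM in DN2, and the CUGCAGU family of miR-17* and miR-20b* had 619 RPM in CD4SP and 892 RPM in CD8SP, against 2255 RPM in DN2. With size factors or TMM factors the AAAGUGC sum was no longer called in CD8SP and the AGUGCAA sum no longer in CD4SP. The largest sum, that of the AGCAGCA seed of miR-15 and miR-16, had 323168 RPM in CD4SP and 263654 RPM in CD8SP, against 203644 RPM in DN2, with ratios of 1.59 (1.58 to 1.59) and 1.29 (1.29 to 1.30), and was not called. Names without a RefSeq match in the table used, 22 of 150, are not in these sums.

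Among the other lists no member passed the shared rule in either direction for let-7 (9 tested), the miR-30 family (5), the miR-26 family (2), miR-15 with miR-16 (4), the clusters of miR-23, miR-24 and miR-27 (5) and the miR-322, miR-503 and miR-351 cluster (5). Over all 150 tested miRNAs 30.7% passed it. let-7, which accompanies differentiation in many tissues, had median log2 ratios of 0.13 in CD4SP and 0.11 in CD8SP. Their sign turns without the 3 most abundant miRNAs. Its most abundant member, let-7f, had 50144 RPM in CD4SP and 49623 RPM in CD8SP, against 40426 RPM in DN2, and let-7g had 40679.9 RPM in CD4SP and 44451 RPM in CD8SP, against 25177 RPM in DN2. miR-16, which restrains the cell cycle, was the most abundant miRNA of each library, with 246177 RPM in CD4SP and 200991 RPM in CD8SP, against 156103 RPM in DN2 and ratios of 1.58 and 1.29. miR-26a had 37427 RPM in CD4SP and 28967 RPM in CD8SP, against 20318 RPM in DN2, and miR-30d had 4199.6 RPM in CD4SP and 3462 RPM in CD8SP, against 2816 RPM in DN2. In the mature tables these abundant miRNAs lay above DN2 in both libraries by less than 2-fold. Of miR-30d, however, 21.1% of reads in CD8SP and 40.0% in DN2 were in the separately deposited hairpin tables. With those added it had 3982 RPM in CD8SP against 4108 RPM in DN2, a ratio of 0.969 (0.944 to 0.995).

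The mature lymphocyte list of 8 tested names had 2 shared higher, miR-150 and miR-342-3p, and 0 shared lower, beside 10.7% and 20% of all 150 tested. Its median log2 ratios were 0.90 in CD4SP and 0.58 in CD8SP, beside -0.30 and -0.06 over all 150. miR-146a, a brake on NF-kB signalling, had 1512 RPM in CD4SP and 853 RPM in CD8SP, against 433 RPM in DN2, with ratios of 3.49 (3.27 to 3.73) in CD4SP and 1.97 (1.83 to 2.12) in CD8SP, and was called in CD4SP alone. miR-29b had 8894 RPM in CD4SP and 13247 RPM in CD8SP, against 20454 RPM in DN2, and was called lower in CD4SP alone, while miR-29a had 4074 RPM in CD4SP and 3976 RPM in CD8SP, against 4410.4 RPM in DN2, and was called in neither. The activation list of 5 tested names had 1 shared higher, miR-182, and 3 shared lower, miR-21, miR-221 and miR-222. Its other member tested, miR-155, needed for T cell responses, had 5177 RPM in CD4SP and 4429 RPM in CD8SP, against 3436 RPM in DN2, and was called in neither. The miR-130 and miR-301 list of 3 tested names had 2 shared lower and 0 higher. The shares over all 150 given for the mature lymphocyte list also stand beside this and the activation list.

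The mature libraries differed from each other for fewer miRNAs than either did from DN2, with 5 called higher in CD4SP than in CD8SP (3.33%) and 15 lower (10%), 20 in all (13.3%). Of the shared miRNAs, 3 of the 16 higher and 4 of the 30 lower were among these. The widest at 1000 RPM or more was miR-27a, with 1076 RPM in CD4SP and 5173 RPM in CD8SP, against 2665 RPM in DN2. miR-24 had 17130.0 RPM in CD4SP and 45419.6 RPM in CD8SP, against 28918 RPM in DN2. For these the mature libraries lay on opposite sides of DN2. miR-324-5p had 484 RPM in CD4SP and 1225 RPM in CD8SP, against 1275 RPM in DN2, and only CD4SP was apart from DN2. The erythroid miRNAs miR-451, miR-486 and miR-144 summed to 44.9 RPM in CD4SP and 621 RPM in CD8SP, against 569 RPM in DN2. The part of red cells in the differences between the libraries was not tested. The 3 liver miRNAs summed to 540.3 RPM in CD4SP and 543.5 RPM in CD8SP, against 389 RPM in DN2, and the 6 mesenchymal ones, 4 of them with reads in each library, to 7.78 RPM in CD4SP and 9.77 RPM in CD8SP, against 30.7 RPM in DN2. Of the neural list nearly all reads were miR-128.

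A readout that does not depend on the library total is the share of the minor arm among the reads of both arms of a hairpin. An arm named with a star was taken as the minor arm whatever its reads. miR-33* and miR-378* held most reads of their hairpins in all 3 libraries, so for them it is the share of the starred arm. Where the major arm is encoded by several hairpins, the share mixes them. Of 56 hairpins with at least 100 reads in each library and at least 10 minor-arm reads in 1 or more, the exact 95% intervals lay apart from DN2 in both single-positive libraries, and lower, for 12 (21.4%), and higher for 2 (3.57%). For miR-26b* the share was 0.587% (0.467 to 0.728) in CD4SP and 0.422% (0.307 to 0.566) in CD8SP, against 2.31% (1.86 to 2.83) in DN2. For miR-181a-1* it was 0.698% (0.674 to 0.723) in CD4SP and 0.611% (0.567 to 0.658) in CD8SP, against 1.87% (1.77 to 1.98) in DN2. For miR-92a* it was 2.81% (2.06 to 3.73) in CD4SP and 4.04% (3.12 to 5.14) in CD8SP, against 9.89% (8.86 to 11.01) in DN2. In all 3 both mature libraries had the smaller share. The major arms miR-181a and miR-92a each come from 2 hairpins and their minor arms here from 1, so these 2 of the 12 shares can also move with the use of the other locus, which was not tested. Taken alone, CD4SP had 23 hairpins lower and 5 higher than DN2, and CD8SP 16 and 4. The other 9 lower were miR-27a*, miR-342-5p, miR-27b*, miR-93*, miR-20a*, miR-425*, miR-21*, miR-423-3p and miR-15b*, picked after their values were seen, as were the 2 higher.

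The 2 hairpins with a larger minor share in the mature cells were miR-296 and miR-140. For miR-296-5p the share was 50.7% (45.3 to 56.1) in CD4SP and 18.8% (16.04 to 21.9) in CD8SP, against 11.01% (9.67 to 12.5) in DN2. For miR-140* it was 18.7% (17.4 to 20.04) in CD4SP and 25.4% (23.4 to 27.6) in CD8SP, against 12.9% (11.2 to 14.7) in DN2. Read numbers bound these statements, since miR-26b* rests on 82 reads in CD4SP, 44 in CD8SP and 91 in DN2. miR-16* rests on 11, 11 and 20. By ratio its point estimates differed from DN2 more than those of miR-26b* in CD4SP and less in CD8SP. Where the deposited hairpin tables hold many reads of a miRNA the mature table is a part of it. Of miR-26b 75.9% of reads were there in CD8SP and 84.0% in DN2, and of miR-92a 96.9% in CD8SP and 97.6% in DN2. Of miR-140 it was 65.7% in CD8SP and 69.6% in DN2. The arm shares of these hairpins therefore describe the mature table alone.

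With the mature and hairpin tables added and the arms pooled, which could be done for CD8SP against DN2, 14 of the 14 whole miRNAs behind the shared higher names were still called higher. Of the 27 behind the shared lower names 25 were still called lower, the exceptions being miR-671 and miR-93. miR-92a then had 16946 RPM in CD8SP against 45495 RPM in DN2, a ratio of 0.372 (0.369 to 0.376). miR-128 had 4666 RPM in CD8SP against 28815 RPM in DN2, a ratio of 0.162 (0.159 to 0.165). miR-26b had 14742 RPM against 8937 RPM, a ratio of 1.65 (1.62 to 1.68), and its CD8SP call was lost. The miR-17 relative miR-92a thus passed the rule in this comparison once its hairpin-table reads were included.

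The 3′ ends of the reads gave a second readout free of the library total. Terminal nucleotidyl transferases can add bases, mostly U or A, that the genome does not encode. A read was counted as carrying an added base when its last base did not match the hairpin and all bases before it did. An added U that matches the next hairpin base cannot be seen. Of 70 miRNAs with at least 1000 reads in each of the 3 libraries, the share with an added U was higher in both single-positive libraries, with intervals apart from DN2, for 41 (58.6%), and lower in both for 0 (0%). The point estimate was higher in both for 58 and lower in both for 5. Taken alone, CD4SP had 48 higher and 1 lower, and CD8SP 44 and 2. The median share over the 70 was 5.30% in CD4SP and 4.73% in CD8SP, against 2.51% in DN2.

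miR-19b, a miR-17 cluster member, had an added U on 42.0% (40.6 to 43.4) in CD4SP and 37.2% (35.01 to 39.4) in CD8SP, against 24.0% (22.7 to 25.2) in DN2. miR-17 had it on 27.1% (26.6 to 27.6) in CD4SP and 24.5% (23.9 to 25.0) in CD8SP, against 15.7% (15.4 to 15.99) in DN2. miR-20a had it on 17.7% in CD4SP and 16.8% in CD8SP, against 9.35% in DN2. For these both mature libraries lay above DN2. let-7i had it on 23.0% in CD4SP and 23.4% in CD8SP, against 11.95% in DN2, and miR-27a on 34.2% in CD4SP and 34.0% in CD8SP, against 22.2% in DN2. These examples were picked after their values were seen. Among miRNAs with high shares, miR-24 had an added U on 64.4% in CD4SP and 60.5% in CD8SP, against 61.3% in DN2, and miR-150 on 55.7% in CD4SP and 48.1% in CD8SP, against 47.4% in DN2. For miR-24 the intervals put CD4SP above and CD8SP below DN2, and for miR-150 CD4SP lay above DN2 while the CD8SP interval overlapped that of DN2.

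Split by their own level, 8 of 9 shared lower miRNAs had the larger added-U share in both mature libraries, 1 of 6 shared higher miRNAs, 7 of 15 called in 1 comparison and 25 of 40 called in neither. These are counts without a test. An added A was higher in both for 15 of 70 (21.4%) and lower in both for 3 (4.29%), which were miR-24, miR-17 and let-7b. With CD4SP alone the added A was higher for 31 and lower for 5, and with CD8SP alone higher for 18 and lower for 12. The median share with an added A was 4.12% in CD4SP and 3.89% in CD8SP, against 3.37% in DN2. Over all mature reads an added U was on 5.99% in CD4SP and 9.20% in CD8SP, against 5.38% in DN2. By this measure CD4SP lay only slightly above DN2. An added C was on 0.300% in CD4SP and 0.300% in CD8SP, against 0.417% in DN2. An added G was on 0.174% in CD4SP and 0.142% in CD8SP, against 0.142% in DN2. Reads of 21 nt or longer made up 34.4% in CD4SP and 31.6% in CD8SP, against 38.7% in DN2, so the mature libraries were shorter on the whole although more of their reads ended in an added U. The part of read length in these shares was not tested.

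**Figure D4:**
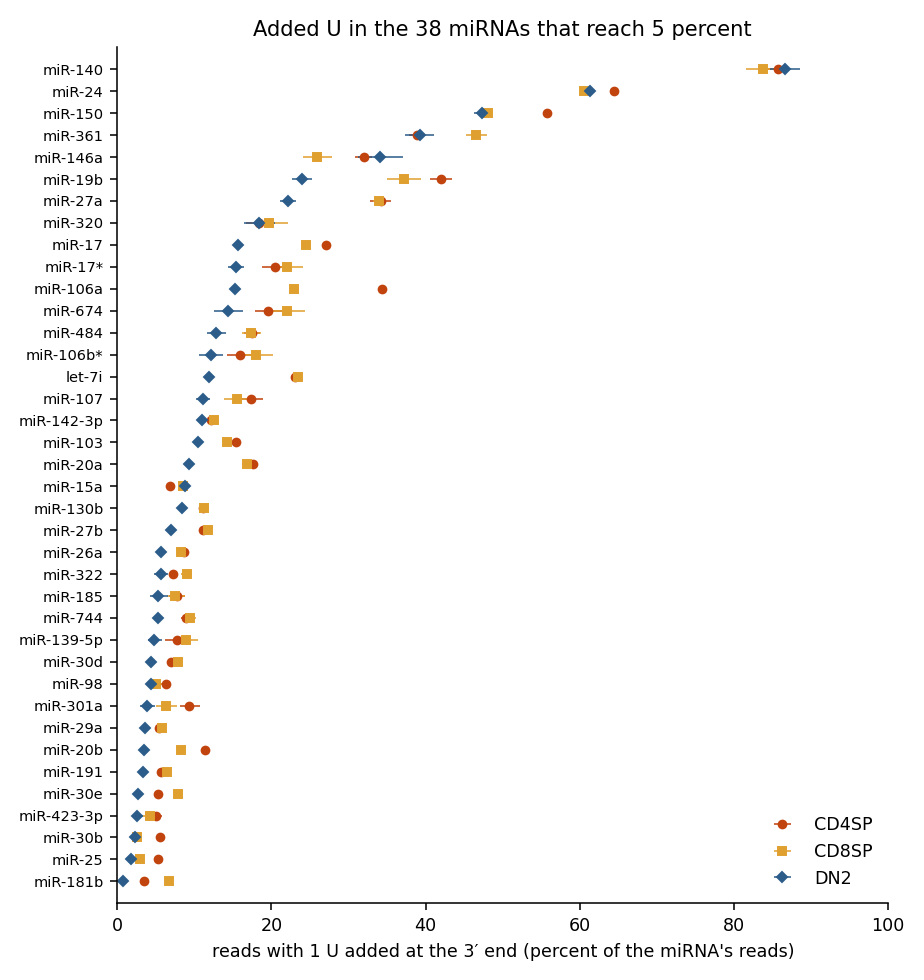
Share of reads with an added U (horizontal axis, percent) in CD4SP, CD8SP and DN2 for the miRNAs that reach 5% in any of the 3 libraries, 1 row per miRNA ordered by the DN2 share, with bars for exact 95% counting intervals. For miR-19b, miR-17 and miR-20a both single-positive libraries sit to the right of DN2, and over all 70 miRNAs the medians are 5.30% in CD4SP and 4.73% in CD8SP against 2.51% in DN2.

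The 5 other libraries with reads from base 3, the marrow fractions LSK, MPP, LMPP and ProB (pro-B cells) and the thymic stage DN1, place the shared miRNAs among the stages. Of the 16 shared higher miRNAs CD4SP or CD8SP was highest of the 8 libraries for 15, the exception being miR-151-5p, highest in LSK. DN2 was lowest of the 8 for 1, and DN1 was above DN2 for 11. miR-150 is such a case, with 1277 RPM in LSK, 2108 in ProB, 46468 in DN1, 3099 in DN2, 23293 in CD4SP and 50003 in CD8SP. miR-22 had 2256 RPM in LSK, 842 in ProB, 11559.7 in DN1, 1303 in DN2, 12090.5 in CD4SP and 6934 in CD8SP. DN1 was above DN2 for both. The myeloid marker miR-223 had 17609 RPM in DN1 and 869 in DN2, and the part of myeloid cells in the DN1 levels was not tested. miR-132 was under 35 RPM in all 6 earlier libraries.

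Of the 30 shared lower miRNAs CD4SP or CD8SP was lowest of the 8 for 27, the exceptions being miR-128, miR-130b and miR-31. The 30 were chosen for being low in the mature libraries, so this count too follows in part from the choice. A marrow progenitor library was highest for 15, ProB for 6, DN1 for 2 and DN2 itself for 7. miR-126-3p had 10607 RPM in LSK, 21752 in LMPP, 5160.4 in pro-B cells, 1632 in DN1, 1333 in DN2, 123 in CD4SP and 83.1 in CD8SP. Its DN2 level was already far under that of the marrow. miR-20a had 83469.5 RPM in LSK, 98362 in LMPP, 119580.0 in pro-B cells, 42857 in DN1, 114370.0 in DN2, 32267 in CD4SP and 43832 in CD8SP. DN1 lay near the mature libraries here, and below DN2 for 24 of the 30, a set chosen for being high in DN2. miR-128 had 463 RPM in LSK, 2614 in LMPP, 6304 in pro-B cells, 1410.4 in DN1, 13379 in DN2, 4550.4 in CD4SP and 2179.8 in CD8SP. Among these 8 libraries it was highest in DN2. In the mature tables it was higher still in the thymic stages DN3, DN4 and DP, at 27449, 37879 and 26754 RPM. Reads of these stages mostly start at other bases. Of miR-128, however, 59.4% of DN2 reads were in the separately deposited hairpin table, and with it added DN2 had 28815 RPM. Whether miR-128 rises after DN2 can therefore not be read from the mature tables. The median added-U share over the same 70 miRNAs was 4.26% in LSK, 3.75% in MPP and 3.59% in LMPP. It was 2.03% in pro-B cells and 4.64% in DN1, beside the values of DN2 and the mature cells given above, so low shares were found in ProB and DN2 and higher ones in DN1 and the mature cells.

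**Figure D5:**
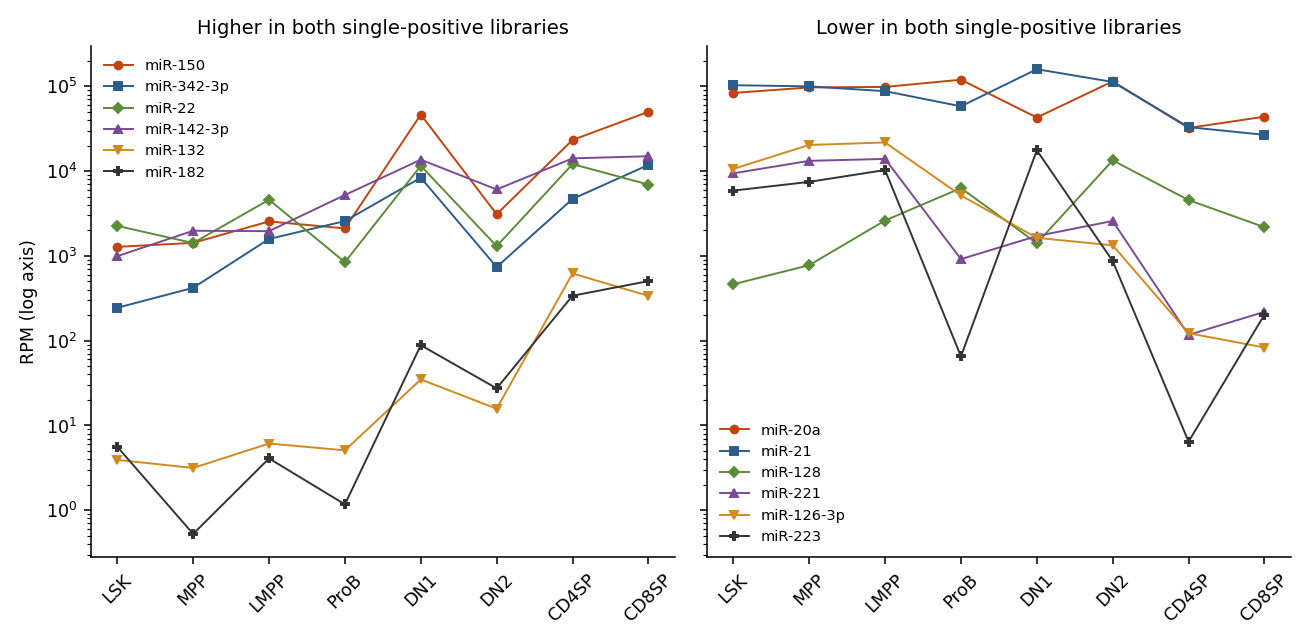
RPM on a log axis of 12 shared miRNAs, picked after their values were seen, in the 8 libraries with reads from base 3, 6 higher ones (left) and 6 lower ones (right), in stage order from LSK to CD8SP, 1 point per library joined by lines. miR-150 and miR-22 are low in DN2 and high in DN1 and the mature cells, and miR-126-3p is highest in LMPP and has 122.5 and 83.1 RPM in CD4SP and CD8SP.

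Near the edge of the shared rule, the bound of the fold interval nearest to 1, taken as the smaller of the 2 comparisons, was 2.05 for miR-467c and 2.18 for miR-142-5p, just inside. Just outside were miR-200c, with 1.98 and 92.9 and 105 RPM in CD4SP and CD8SP against 37.3 in DN2, and miR-92a, with 1.91.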

How the data were processed

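Small RNA was sequenced from 12 mouse cell populations, 1 library each, of which CD4SP, CD8SP and DN2 are compared here. Per the labels' protocols, a gel cut of 19 to 24 nt was used, and the ligation of adaptors required a 3′ hydroxyl and a 5′ phosphate. The authors deposited raw read counts per distinct sequence, with the miRNA name, length and start position, per the file headers. Adaptor trimming, aligner and miRNA release: not given in the sources used here. For CD8SP the tables were taken by the names they hold, since their order is reversed. The CD4SP hairpin table was not used here.

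Read counts were added up for each miRNA name, with sequences assigned to several names split equally, and scaled to RPM. The totals of 4497420, 2660370 and 2410114 reads in CD4SP, CD8SP and DN2 put the floor of 3 reads at 0.667, 1.13 and 1.24 RPM. Ratios have exact 95% conditional binomial (Clopper-Pearson) intervals and shares exact binomial ones. PCR reads are not independent molecules. Hairpins were placed on GRCm38 with GENCODE M21 (148 of 150 tested names) and mature sequences taken from RefSeq (128 of 150). The rule was tested on simulated counts. Members, lists and rules were chosen with earlier results of these data known.

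miRNAs named by rule were shared higher ones with 1000 RPM in both single-positive libraries, the 10 largest shared lower ones with 1000 RPM in DN2, the 5 most abundant of each library, up to 4 per list, the 6 widest between CD4SP and CD8SP and 4 hairpins by arm change. Others were named after their values were seen. Alternatives were DESeq2 1.42.0 size factors, edgeR 4.0.16 TMM factors, a total without the 3 most abundant miRNAs, other treatments of shared, single and imperfect sequences, other floors and folds, thinning, both tables added and each mature library left out. Python 3.11.15, numpy 2.4.6, scipy 1.17.1, pandas 2.3.3, matplotlib 3.10.9 and R 4.3.3 were used.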

Additional observations from a re-analysis of the deposited data

Results flagged for a closer look

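For miR-27a and miR-24 the mature libraries moved in opposite directions against DN2, each by at least 1.5-fold. miR-27a had a ratio to DN2 of 0.404 in CD4SP and 1.94 in CD8SP, and miR-24 had 0.592 in CD4SP and 1.57 in CD8SP. Both names belong to the miR-23a cluster on chromosome 8, and miR-24 also has a copy on chromosome 13. With 1 library per population the difference was not tested.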

How the results depend on the processing

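No paired analysis was possible because each population has 1 library. Against 16 shared higher and 30 shared lower miRNAs, size factors gave 25 higher, TMM factors 30 higher and 19 lower, a floor of 500 RPM 8 and 15, a 1.5-fold rule 29 higher and a 4-fold rule 8 and 9. Leaving out a mature library left 20 to 29 higher (29 without CD4SP) and 33 to 49 lower (49 without CD8SP). For CD4SP against DN2 (20 higher, 49 lower), size factors gave 35 higher, TMM factors 37 higher and 29 lower, a floor of 500 RPM 13 and 24, no floor 31 higher, a 1.5-fold rule 34 higher and a 4-fold rule 8 and 18. For CD8SP against DN2 (29 higher, 33 lower), a floor of 500 RPM gave 13 and 17, no floor 50 lower, a 1.5-fold rule 46 higher and a 4-fold rule 12 and 13. For CD4SP against CD8SP (5 higher, 15 lower), a floor of 500 RPM gave 7 lower, a 1.5-fold rule 9 and 34, and a 4-fold rule 0 and 8, with no p-value to set beside that 0. With each mature library left out in turn (chosen after seeing the data), the added U was lower for 1 to 2, the added A higher for 18 to 31 and lower for 5 to 12, and the minor arm higher for 4 to 5 and lower for 16 to 23. Seed sums on the log2 scale that crossed the rule with size factors were AGCAGCA 1.02, UCAAGUA 1.24 and AGUGCAA -0.96 in CD4SP and AAAGUGC -0.96 in CD8SP. With TMM factors they were AGCAGCA 1.12, UCAAGUA 1.34 and AGUGCAA -0.85 in CD4SP, and AAAGUGC -0.78, AGUGCAA -0.90 and CUGCAGU -1.02 in CD8SP. Without the 3 most abundant miRNAs they were AGCACCA -1.09, AUUGCAC -1.04 and UCACAGU -1.12 in CD4SP, and with perfect matches GUGCAAA -1.27 and UCACAGU -1.05 in CD4SP. List medians less that of all tested moved beyond their counting interval with perfect matches, in CD4SP to -1.31 (miR-17 and paralogs), 0.47 (let-7), -0.24 (miR-181), 0.97 (miR-15 and miR-16), -1.24 (miR-23, miR-27 and miR-24) and -1.42 (activation), and in CD8SP to -1.22 (miR-17 and paralogs), 0 (let-7), 0.42 (miR-15 and miR-16), 0.29 (miR-30) and -1.97 (activation). Thinning moved them to 0.38 (miR-15 and miR-16) and -2.02 (activation) in CD8SP. Among shared calls, perfect matches also ended that of miR-671-5p (76.1 RPM in DN2) and sequences seen once that of miR-183 (99.97 RPM in CD4SP). By construction, stricter floors and folds leave fewer miRNAs, and leaving out a mature library cannot lower a count that otherwise requires both. Each alternative scaling moves every ratio of a comparison by the same amount. The cause of the changes was not tested beyond this. Of the values of single named miRNAs 1499 kept their side of the rule, 58 crossed into it and 60 out of it, and 0 changed direction. Depth limits statements on miRNAs of under about 10 reads in the 3 libraries.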
